A study of Arabidopsis thaliana with 6 samples.

Results

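The type-A *ARABIDOPSIS RESPONSE REGULATOR* (*ARR*) genes are 10 of the 36796 genes in an RNA-seq count matrix that compares wild-type and *ref4-3* plants. They were taken by locus identifier: *ARR3* (AT1G59940), *ARR4* (AT1G10470), *ARR5* (AT3G48100), *ARR6* (AT5G62920), *ARR7* (AT1G19050), *ARR8* (AT2G41310), *ARR9* (AT3G57040), *ARR15* (AT1G74890), *ARR16* (AT2G40670) and *ARR17* (AT3G56380). Of these, 8 passed the filter on low counts, and *ARR3* and *ARR17* did not. RNA came from whole rosettes of Col-0 plants at an age of 21 days, before bolting, with 3 libraries of wild type and 3 of *ref4-3*, and 5 plants in each library. Seeds of both genotypes were cold treated in the dark for 3 days. Plants grew on soil at 22 °C under 16 h of light (150 μE) and 8 h of darkness and were collected 6 h into the light period. The *ref4-3* allele is a semidominant point mutation that changes an amino acid of MED5b, a subunit of the tail of Mediator, the complex through which transcription factors reach RNA polymerase II, so these data describe a single allele and not the loss of MED5b. The study sequenced RNA to ask how transcript levels relate to the histone mark H3K27me3 in *ref4-3* plants.

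Cytokinins are plant hormones that promote shoot growth and cell division and delay leaf senescence. They are sensed by the histidine kinases AHK2, AHK3 and AHK4, from which phosphate passes through the AHP phosphotransfer proteins to the type-B ARR transcription factors in the nucleus. Type-B ARR proteins activate the type-A *ARR* genes within minutes, and the type-A proteins, which have a receiver domain and no DNA-binding domain, feed back to dampen cytokinin signaling. For this reason type-A transcript levels are widely used as a readout of the cytokinin response.

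Of the type-A *ARR* genes, only *ARR4* passed edgeR's quasi-likelihood test between *ref4-3* and wild-type rosettes. Transcript levels of *ARR4*, the most abundant member, were 1.53-fold higher, while those of its relative *ARR5* had a fitted fold change of 0.471 that did not pass the test. Of the 8 members tested by edgeR's quasi-likelihood test, 1 rose, 0 fell and 7 did not pass an adjusted p of 0.05. That is 12.5% called higher, beside 8.52% of the 23050 genes tested, and none called lower, beside 11.9% of all genes. At an unadjusted p under 0.05, 1 member was lower (*ARR5*) and 2 were higher (*ARR4* and *ARR6*), beside 38.3% of all genes in either direction. No member passed this quasi-likelihood test with a change above 2-fold in either direction, beside 9.72% of all genes, and with 8 members these shares lie near the background. By edgeR's exact test, the kind the study's methods name, *ARR5* and *ARR6* passed with a change above 2-fold. Their log2 fold changes were -1.09 (adjusted p = 0.0125 by the exact test) and 1.11 (adjusted p = 0.0292). *ARR4* passed the exact test too (adjusted p = 0.0222), with a change below 2-fold. That test called 3265 genes lower and 2838 higher, of 23050, at the adjusted p alone. Its share of all genes with a change above 2-fold was not counted. The *ARR5* and *ARR6* calls at that threshold therefore have no background beside them here. Of all calls by the quasi-likelihood test, 41.8% were higher in *ref4-3*, and 29.9% where no filter on low counts was used. Fitted log2 fold changes ran from -1.09 to 1.11, with 5 positive and 3 negative, and their median was 0.34, beside 0.01 for all genes tested. Levels are given as CPM, the counts of a gene scaled to a common library size by the TMM method.

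**Figure D1:**
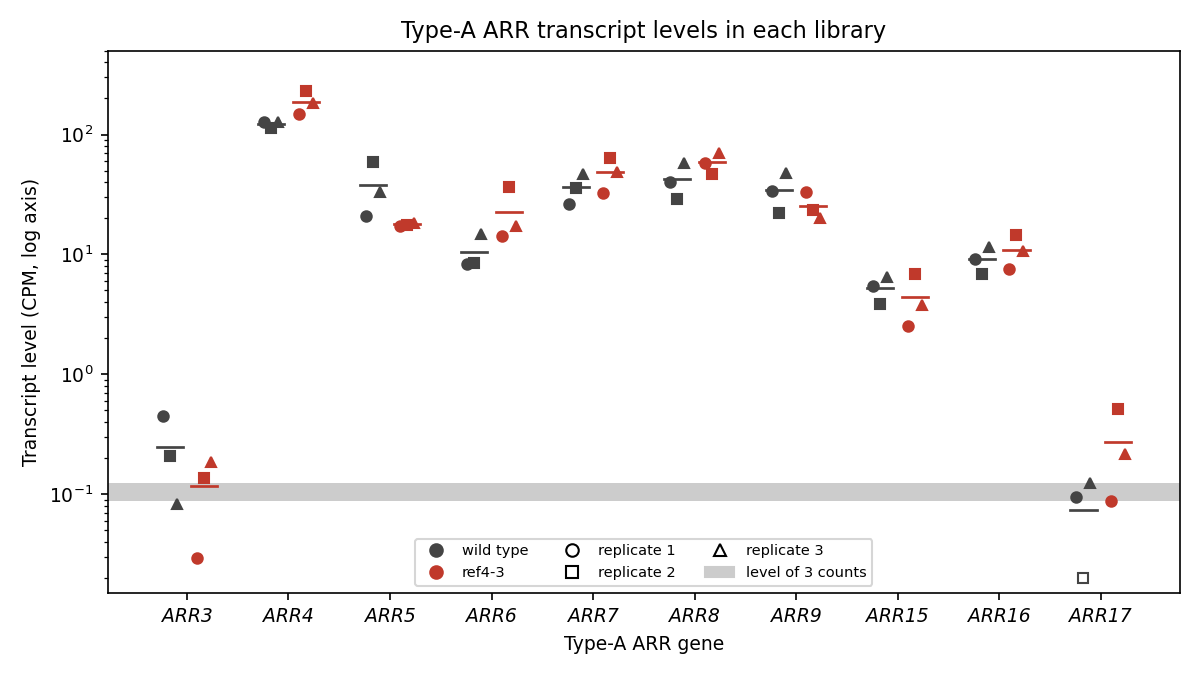
Transcript level of each type-A *ARR* gene (x axis) in CPM on a log axis (y axis), by library. Gray symbols are wild type, red symbols are *ref4-3*, shapes are replicate numbers, bars are means of 3 libraries, the gray band spans the level that 3 counts correspond to in each library, and the open square, drawn at the foot of the axis, is a count of 0. *ARR4* in *ref4-3* (149 to 229 CPM) lay above wild type (113 to 127 CPM), *ARR5* in *ref4-3* (17.4 to 18.3 CPM) lay below it (20.8 to 59.5 CPM), and the other 6 tested genes overlapped.

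Libraries held 26060005 to 32879414 counts, and 3 counts equaled 0.0873 to 0.124 CPM. The TMM factors were 0.961, 0.875 and 0.919 in wild type and 1.05, 1.12 and 1.1 in *ref4-3*, so the scaling differed by genotype. Statements that groups overlap or separate hold after this scaling. Scaled by total counts alone, the *ARR5* groups would overlap and the *ARR6* groups would not. Wild-type replicate 2 had counts for 27913 genes and the other libraries for 32015 to 34884. Among genes with a mean under 1 CPM, 83.4% had a positive fitted fold change and 64.8% were lowest in that library, beside 44.2% and 19.6% of genes averaging 1 CPM or more. *MED5b* itself was at 21.6 ± 4.5 CPM in wild type and 17.4 ± 1.15 in *ref4-3* (SD, n = 3), which does not check the labels because the allele is a point mutation. Leaf genes were abundant as labelled, with *CAB1*, a chlorophyll-binding protein gene, at 29476 and 15771 CPM, and the 4 root marker genes together reached at most 3.31 CPM.

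The upstream sequences of *ARR4*, *ARR5* and *ARR6*, the members with the lowest p-values, and of *ARR7* are shown because type-B ARR proteins bind DNA at a short GAT-containing core. Each is the 250 bases before the annotated gene start, read 5′ to 3′ on the strand of the gene from the RefSeq genome TAIR10.1. Capitals mark AGATC or AGATT on either strand, so that GATCT and AATCT are the same letters on the opposite strand, and AGATCT holds AGATC on both strands.
*ARR4* (chr1:3444361-3444610, minus strand): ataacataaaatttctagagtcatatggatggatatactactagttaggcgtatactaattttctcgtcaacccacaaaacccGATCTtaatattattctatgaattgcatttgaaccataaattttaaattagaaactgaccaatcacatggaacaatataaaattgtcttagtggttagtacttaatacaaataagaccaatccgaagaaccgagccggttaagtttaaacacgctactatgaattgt
*ARR5* (chr3:17760951-17761200, minus strand): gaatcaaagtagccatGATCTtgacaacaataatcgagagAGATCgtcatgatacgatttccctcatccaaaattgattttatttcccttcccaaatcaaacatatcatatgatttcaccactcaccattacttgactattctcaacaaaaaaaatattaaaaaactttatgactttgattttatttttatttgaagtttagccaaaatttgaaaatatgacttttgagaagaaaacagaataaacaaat
*ARR6* (chr5:25254319-25254568, minus strand): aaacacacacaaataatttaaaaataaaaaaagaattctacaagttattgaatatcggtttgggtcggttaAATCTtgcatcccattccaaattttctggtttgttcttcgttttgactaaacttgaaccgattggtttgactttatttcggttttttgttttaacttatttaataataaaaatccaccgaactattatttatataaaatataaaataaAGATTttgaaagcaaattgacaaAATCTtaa
*ARR7* (chr1:6579315-6579564, minus strand): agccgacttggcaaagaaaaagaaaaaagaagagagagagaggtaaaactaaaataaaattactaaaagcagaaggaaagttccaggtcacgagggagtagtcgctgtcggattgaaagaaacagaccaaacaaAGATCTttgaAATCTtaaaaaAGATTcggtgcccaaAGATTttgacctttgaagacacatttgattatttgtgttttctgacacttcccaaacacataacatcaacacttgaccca

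AGATCT lay in this window in 1 of 10 members, *ARR7*, beside 5.98% of 27443 promoters. AGATC lay in 5 of 10 members (*ARR4*, *ARR5*, *ARR7*, *ARR16* and *ARR17*), beside 26.6% of all promoters, and AGATT lay in 7 of 10 (*ARR3*, *ARR6*, *ARR7*, *ARR8*, *ARR9*, *ARR15* and *ARR16*), beside 63.7%. *ARR5* and *ARR6*, each the closest relative of the other, thus held different letters here, with 2 AGATC and no AGATT upstream of *ARR5* and 3 AGATT and no AGATC upstream of *ARR6*. The nearest annotated gene upstream of any member lay 502 bases away, at *ARR6*. A match of letters is a description and was not tested for binding.

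Levels of different genes are compared per kb of the longest annotated transcript. In wild type, *ARR4* stood highest at 60.6 ± 3.86 CPM per kb, above *ARR7* at 38.4 ± 11.1, with no overlap of the 3 libraries. *ARR7*, *ARR5* (26.1 ± 13.6), *ARR9* (21.2 ± 7.72) and *ARR8* (17.9 ± 6.12) followed, each overlapping the next. A gap separated *ARR8* from *ARR6* (7.19 ± 2.5), *ARR15* (4.87 ± 1.22) and *ARR16* (4.43 ± 1.11), whose neighbours overlapped, and *ARR3* and *ARR17* were at 0.187 and 0.118 CPM per kb.

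In *ref4-3* rosettes *ARR4* (92.8 ± 20 CPM per kb) and *ARR7* (51.5 ± 16.7) kept the first places, without overlap between them or between *ARR7* and *ARR8* (24.7 ± 5.03). *ARR5* stood lower in the order, at place 6 with 12.3 ± 0.341 CPM per kb against place 3 in wild type. Its *ref4-3* libraries overlapped those of its neighbour *ARR6* (15.5 ± 8.31), which in turn overlapped *ARR9* (15.7 ± 4.15). As a share of the summed CPM per kb of the 10 genes, *ARR4* made up 29.8% to 39.7% in wild-type libraries and 40.8% to 42.5% in *ref4-3* libraries, and *ARR5* made up 9.06% to 23.6% and 4.57% to 6.62%. The summed level of the family was 272 to 345 CPM in wild type and 314 to 440 CPM in *ref4-3*, so that the groups overlapped.

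*ARR4* (chromosome 1, 3441988 to 3444360, minus strand) encodes a regulator known also to bind the photoreceptor phytochrome B. Its level was 127, 113 and 127 CPM in wild-type replicates 1, 2 and 3 and 149, 229 and 183 CPM in *ref4-3* replicates 1, 2 and 3. Every *ref4-3* library was above every wild-type library, as for 22.5% of all genes tested. The mean was 122 ± 7.78 CPM in wild type and 187 ± 40.3 in *ref4-3* (SD, n = 3), a log2 fold change of 0.61 (standard error 0.17, adjusted p = 0.044 by edgeR's quasi-likelihood test). The call stood near the threshold: with 1 library left out in turn it was kept only without *ref4-3* replicate 1, and it was lost without each of the other 5 libraries, with an adjusted p of up to 0.129 by the same edgeR test. Over the 6 fits the log2 fold change ran from 0.44 to 0.75. The call was also lost without a filter on low counts (adjusted p = 0.0802 by edgeR). In that setting the log2 fold change of the 8 tested members shifted by -0.11 to -0.09 and that of the 23050 genes by a median of -0.10.

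*ARR3*, the closest relative of *ARR4* in protein sequence with 70.3% identical residues, was close to undetected. It had 14, 6 and 2 counts in wild type and 1, 4 and 6 counts in *ref4-3*, or 0.0826 to 0.445 CPM and 0.0291 to 0.186 CPM, so that the groups overlapped. Any difference in *ARR3* was not detectable at this depth.

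*ARR5* (chromosome 3, 17758427 to 17760950, minus strand), whose promoter is the usual source of cytokinin reporter lines, had the opposite sign. Its level was 20.8, 59.5 and 33.2 CPM in wild type and 17.4, 17.7 and 18.3 in *ref4-3*. After TMM scaling, every *ref4-3* library was below every wild-type library, as for 22.7% of all genes. However, wild-type replicate 1 stood close to the *ref4-3* values, and the groups would overlap on total counts alone. The wild-type libraries spread over a 2.85-fold range and the *ref4-3* libraries over a 1.06-fold range, beside medians over all genes of 1.38 and 1.28. The mean was 37.8 ± 19.7 CPM against 17.8 ± 0.494 CPM (SD, n = 3), a log2 fold change of -1.09 (standard error 0.34, adjusted p = 0.0573 by edgeR's quasi-likelihood test). Without wild-type replicate 1 it was -1.41 (adjusted p = 0.0113 by the same edgeR test), and over all 6 fits that left out a library it ran from -1.41 to -0.62, the latter without wild-type replicate 2. *ARR5* also passed by edgeR's exact test (adjusted p = 0.0125) and by DESeq2 (adjusted p = 0.012).

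*ARR6* (chromosome 5, 25252007 to 25254318, minus strand) encodes the protein closest to ARR5, with 81.0% identical residues. Its level was 8.36, 8.42 and 14.7 CPM in wild type and 14.1, 36.6 and 17.3 in *ref4-3*, so that *ref4-3* replicate 1 lay just under wild-type replicate 3 and replicate 2 stood highest. The log2 fold change was 1.11 (standard error 0.39, adjusted p = 0.08 by edgeR's quasi-likelihood test), and it passed by edgeR's exact test (adjusted p = 0.0292) and by DESeq2 (adjusted p = 0.0204). With 1 library left out it ran from 0.59 (without *ref4-3* replicate 2, adjusted p = 0.207 by edgeR's quasi-likelihood test) to 1.39. The gene overlaps AT5G62910 on the opposite strand over 15.1% of its length, that gene, at 32.4 CPM in wild type, had a log2 fold change of 0.17 (adjusted p = 0.451 by edgeR), and whether the counting used strand is not given in the sources used here.

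*ARR7* (chromosome 1, 6577833 to 6579314, minus strand) and *ARR15* (chromosome 1, 28131447 to 28133025, minus strand), regulators known for roles in the shoot and root meristems, share 68.9% of residues. *ARR7* was at 26.1, 35.6 and 46.9 CPM in wild type and 32.6, 64.1 and 48.9 in *ref4-3*, with a log2 fold change of 0.42 (standard error 0.29). *ARR15* was at 5.4, 3.86 and 6.49 CPM and at 2.53, 6.8 and 3.78 CPM, with a log2 fold change of -0.27 (standard error 0.37). In both genes the groups overlapped, and the adjusted p was 0.303 and 0.612 by edgeR's quasi-likelihood test. With 1 library left out, the value for *ARR7* ran from 0.17 (without *ref4-3* replicate 2) to 0.64 (without *ref4-3* replicate 1).

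*ARR8* (chromosome 2, 17221840 to 17224880, plus strand) and *ARR9* (chromosome 3, 21109059 to 21111567, plus strand) share 73.8% of residues. *ARR8* was at 40.4, 28.9 and 57.8 CPM in wild type and at 58.1, 46.8 and 70.6 CPM in *ref4-3*, with a log2 fold change of 0.47 (standard error 0.26, adjusted p = 0.223 by edgeR's quasi-likelihood test). *ARR9* was at 34.0, 22.2 and 47.3 CPM and at 33.0, 23.3 and 20.1 CPM, with a log2 fold change of -0.44 (standard error 0.29, adjusted p = 0.296 by the same edgeR test). Groups overlapped in both genes. With 1 library left out, *ARR8* ran from 0.23 (without wild-type replicate 2) to 0.72 (without wild-type replicate 3), and *ARR9* from -0.69 to -0.18 (without the same libraries). Of the 2321 stretches of 50 bases in *ARR8*, 327 also occur in other genes, most of them in a noncoding gene on the opposite strand, or 14.1%. For *ARR6* it is 299 of 1410, or 21.2%, all shared with AT5G62910. The levels of these genes are less certain than those of the other members, which share none.

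*ARR16* (chromosome 2, 16969673 to 16972113, plus strand) and *ARR17* (chromosome 3, 20905264 to 20906397, plus strand) share 85.1% of residues, and ARR16 is known as a regulator of stomatal lineage divisions. *ARR16* was at 9.15, 6.89 and 11.5 CPM in wild type and 7.56, 14.5 and 10.7 in *ref4-3*, groups that overlapped, with a log2 fold change of 0.25 (standard error 0.27, adjusted p = 0.523 by edgeR's quasi-likelihood test). *ARR17* was at 0.0953, 0 and 0.124 CPM (3, 0 and 3 counts) and at 0.0873, 0.515 and 0.217 CPM (3, 15 and 7 counts), and was not tested. Only *ref4-3* replicates 2 and 3 stood above the level of 3 counts.

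**Figure D2:**
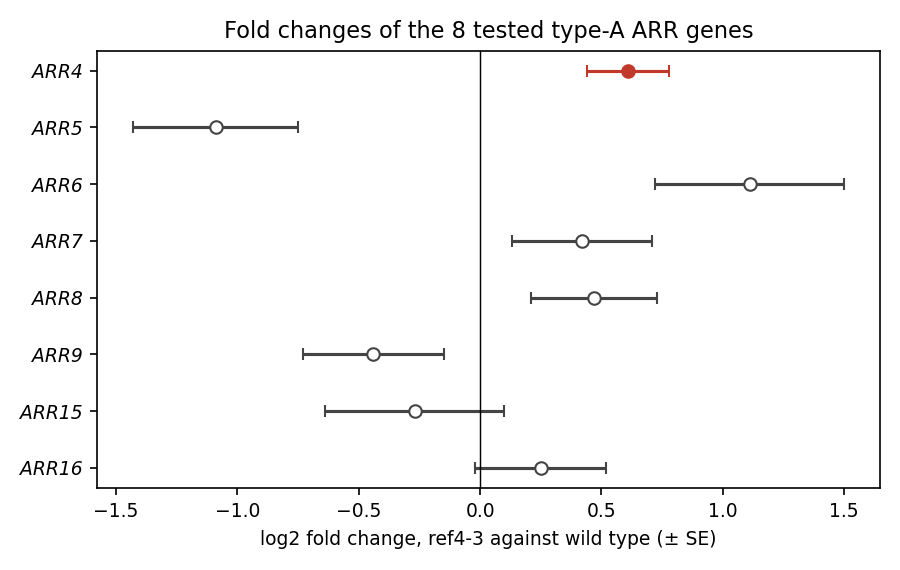
log2 fold change of *ref4-3* against wild type (x axis) with its standard error (bars) for the 8 tested type-A *ARR* genes (y axis), by edgeR's quasi-likelihood fit of 3 against 3 libraries. The filled red point is the gene that passed an adjusted p of 0.05 (*ARR4*, 0.61) and open points did not pass, with *ARR5* at -1.09 and *ARR6* at 1.11.

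Because the 10 proteins form 5 pairs of closest relatives, the ratio within each pair was compared between genotypes inside each library. The log2 ratio of *ARR5* to *ARR6* was 1.32, 2.82 and 1.17 in wild type and 0.30, -1.05 and 0.08 in *ref4-3*. All *ref4-3* values lay lower, and the mean fell by 1.99 on the log2 scale, from 1.77 ± 0.91 to -0.22 ± 0.72 (SD, n = 3), or 3.98-fold. The exact two-sided permutation p was 0.1, which is the smallest that 3 against 3 libraries allow, and 0.125 after Benjamini-Hochberg adjustment over the 5 pairs.

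The log2 ratio of *ARR8* to *ARR9* moved the other way, from 0.25, 0.38 and 0.29 in wild type to 0.82, 1.01 and 1.81 in *ref4-3*, a difference of 0.91 (exact permutation p = 0.1, adjusted 0.125). The ratio of *ARR7* to *ARR15* was 2.77 ± 0.47 in wild type and 3.53 ± 0.26 in *ref4-3* (SD, n = 3), a log2 difference of 0.76 with the same exact permutation p of 0.1 (adjusted 0.125). This permutation test cannot reach an exact p below 0.1 here, so that it could not call any pair. The ratios of *ARR3* to *ARR4* (exact permutation p = 0.2) and of *ARR16* to *ARR17* (exact permutation p = 0.1) rest on a gene that did not pass the filter on low counts, and no fold is given.

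Within a genotype, several members followed the same order of libraries. In *ref4-3*, *ARR4*, *ARR6*, *ARR7*, *ARR15* and *ARR16* were lowest in replicate 1 and highest in replicate 2, an order held by 5 of 8 members and by 20.9% of all genes tested. The order, and the libraries named below, were picked from the members' own values. Genes read in the same libraries are also not independent, so these shares are a description and not a test. *ref4-3* replicate 1 was the lowest of its group for 6 of 8 members, beside 36.6% of all genes. In wild type, replicate 3 was the highest for 6 of 8 members, beside 35% of all genes, and replicate 2 the lowest for 5 of 8, beside 38.4%. Highest over lowest library was above the median of all genes for 7 of 8 members in wild type and 7 of 8 in *ref4-3*, with *ARR4* and *ARR5* as the respective exceptions.

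**Figure D3:**
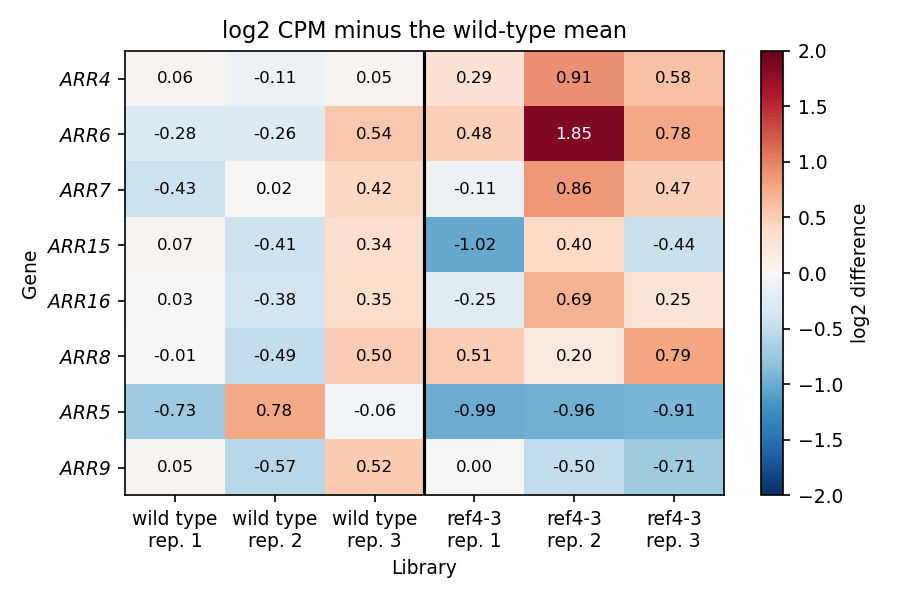
log2 CPM of the 8 tested type-A *ARR* genes (rows) in each of the 6 libraries (columns) minus the mean of the 3 wild-type libraries for that gene, with the value printed in each cell and shown by color. *ARR4* was above 0 in all 3 *ref4-3* libraries (0.29, 0.91 and 0.58) and *ARR5* below 0 in all 3 (-0.99, -0.96 and -0.91), while *ARR7* and *ARR16* were below 0 in replicate 1 alone among the *ref4-3* libraries.

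Over the 6 libraries, the mean log2 CPM of the 8 members was 4.40, 4.38 and 4.89 in wild type and 4.42, 4.99 and 4.66 in *ref4-3*, and did not separate the genotypes. The genes closest to this mean were AT5G51140 (Pearson's r = 0.994), *CYP705A28* (0.989), AT5G06795 (0.985), AT3G52760 (0.983) and AT2G43745 (0.982), picked as the highest of all genes tested and given as a description over 6 libraries that share their depth.

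Genes for the other steps of signaling, supply and response were described from lists of pathway genes, 71 in all, of which 66 were tested, 6 fell and 9 rose. These are 9.09% lower and 13.6% higher, beside 11.9% and 8.52% of all genes, and the median log2 fold change was 0.17. For the 16 of them that averaged under 1 CPM, where wild-type replicate 2 was often the lowest library, the median was 1.14, and for the other 50 it was -0.01, with 6 lower and 8 higher. Among the receptors, none of 3 passed the test. *AHK2* was at 28.8 ± 3.86 CPM in wild type and 45.4 ± 20.7 in *ref4-3* (adjusted p = 0.187 by edgeR), *AHK3* at 84.9 ± 9.48 and 70.5 ± 10.2 CPM (adjusted p = 0.22 by edgeR), and *AHK4* at 23.6 ± 1.35 and 27.1 ± 1.81 CPM (adjusted p = 0.212 by edgeR; SD, n = 3 for each).

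Of 6 phosphotransfer genes, *AHP1* fell and the others did not pass. *AHP1* was at 2.73, 3.44 and 4.21 CPM in wild type and 0.815, 1.31 and 0.867 in *ref4-3*, a log2 fold change of -1.80 (standard error 0.28, adjusted p = 0.00834 by edgeR) with no overlap. *AHP2*, the most abundant of them, was at 39.8 ± 9.14 and 38.2 ± 1.68 CPM (SD, n = 3). Of 10 type-B genes tested, 1 rose: *ARR21*, at 0.223 and 0.687 CPM, a level in the range where wild-type replicate 2 was low, and its call was lost without any 1 of the 6 libraries. The most abundant type-B gene, *ARR1*, which encodes an activator of type-A genes, was at 41 ± 3.58 and 41.7 ± 6.08 CPM (SD, n = 3), a log2 fold change of 0.02 (standard error 0.14). The 2 type-C genes were not tested, at a summed level of at most 0.527 CPM.

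**Figure D4:**
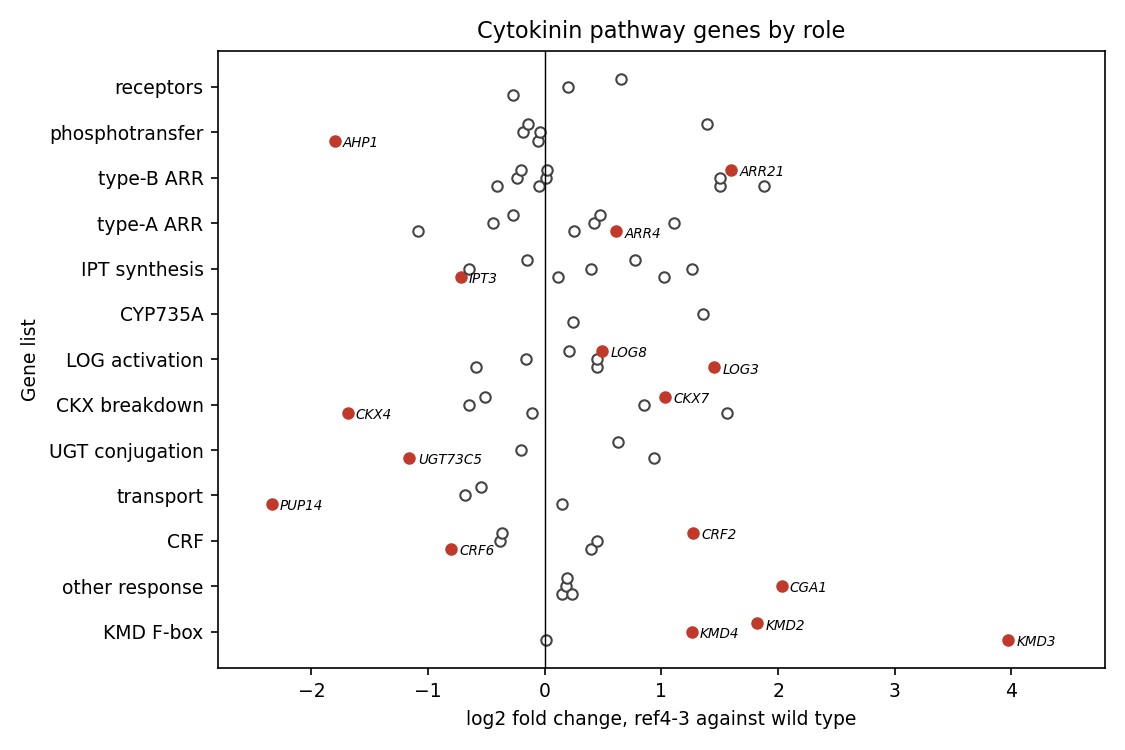
log2 fold change of *ref4-3* against wild type (x axis) for the tested genes of each cytokinin list (y axis), with small vertical offsets for legibility. Filled red points passed an adjusted p of 0.05 by edgeR's quasi-likelihood test and carry their names, and open points did not pass. *KMD3* lay highest at 3.97, *PUP14* lowest at -2.34, and the type-A genes between -1.09 and 1.11.

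Genes for cytokinin supply moved in both directions. Among 8 tested *IPT* genes, which encode isopentenyltransferases, *IPT3* fell from 9.55 ± 0.197 to 5.8 ± 0.809 CPM (SD, n = 3). Its log2 fold change was -0.72 (adjusted p = 0.0187 by edgeR). The most abundant, *IPT9*, was at 24.3 and 21.9 CPM. Neither of 2 *CYP735A* genes, which encode the hydroxylases that make trans-zeatin, passed, with *CYP735A2* at 0.914 and 1.08 CPM. Of 7 *LOG* genes, whose products release the active bases, *LOG8* rose from 25.1 to 35.4 CPM (adjusted p = 0.0379 by edgeR) and *LOG3* from 0.573 to 1.57 CPM (adjusted p = 0.0334 by edgeR). *LOG3* was low in wild type, and lowest in replicate 2 (0.348 CPM). With 1 library left out, the *LOG8* call was kept in 1 of 6 fits and the *LOG3* call in 2 of 6. *LOG1*, the most abundant in wild type and over all libraries, was at 37.8 and 25 CPM and did not pass.

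Of 7 *CKX* genes, which encode the oxidases that degrade cytokinins, 1 fell and 1 rose. *CKX4* was at 8.96, 22.2 and 17.5 CPM in wild type and 4.97, 5.05 and 5.02 in *ref4-3* (log2 fold change -1.69, SE 0.31, adjusted p = 0.0125 by edgeR). *CKX7*, which encodes a cytosolic form, was at 18.7, 14.7 and 14.3 CPM and at 24.4, 40.3 and 32.7 CPM (log2 fold change 1.03, SE 0.20, adjusted p = 0.016 by edgeR). The summed level of the 7 genes was 45.5 to 56 CPM in wild type and 45.4 to 56.3 CPM in *ref4-3*. Of 4 glucosyltransferase genes, *UGT73C5* fell from 9.94 to 4.44 CPM (adjusted p = 0.0223 by edgeR), and *UGT76C2* and *UGT76C1*, which conjugate cytokinins at nitrogen, did not pass.

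*PUP14*, which encodes a carrier that takes cytokinins up into cells, showed the largest fall of the pathway lists. Its level was 126, 470 and 178 CPM in wild type and 53.4, 51.6 and 48.3 in *ref4-3*, so that wild-type replicate 2, also the highest library for *ARR5* and *CKX4*, stood far above the others. The log2 fold change was -2.34 (standard error 0.46, adjusted p = 0.0157 by edgeR) and ran from -2.69 to -1.59 with 1 library left out. It was the only 1 of 4 transport genes to pass.

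Other genes of the response were likewise mixed. Among 6 *CRF* genes, which encode AP2/ERF transcription factors, *CRF2* rose from 5.06 to 12.3 CPM (adjusted p = 0.032 by edgeR) and *CRF6*, the most abundant in wild type, fell from 10.9 to 6.23 CPM (adjusted p = 0.0492 by edgeR). *CGA1*, a cytokinin-induced GATA factor gene that acts in chloroplast development, was at 1.59, 2.5 and 2.4 CPM in wild type and 7.27, 11.2 and 7.96 in *ref4-3*, a log2 fold change of 2.03 (standard error 0.25, adjusted p = 0.00442 by edgeR) with no overlap. The 4 other response genes did not pass, among them *SHY2*, an auxin-response repressor gene that *ARR1* activates in roots, at 61.4 and 70.2 CPM.

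Of the 4 *KMD* genes, which encode Kelch-repeat F-box proteins that target type-B ARR proteins for degradation and are also known to act on phenylalanine ammonia-lyase, 3 rose. *KMD3* was at 36.7, 31.4 and 58.3 CPM in wild type and 767, 602 and 609 in *ref4-3*, a 15.7-fold change (log2 3.97, SE 0.27, adjusted p = 5.3e-04 by edgeR). *KMD2* was at 12.4, 14.2 and 22.2 CPM and at 38, 69.3 and 64.9 CPM (log2 fold change 1.82, SE 0.29, adjusted p = 0.00879 by edgeR). *KMD4* rose from 205 to 491 CPM (adjusted p = 0.0252 by edgeR), and *KMD1* was at 148 and 149 CPM. *KMD3* lies wholly within AT2G44140 on the opposite strand, which had a log2 fold change of -0.09 (adjusted p = 0.499 by edgeR).

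The calls of *AHP1*, *CGA1*, *KMD2* and *KMD3* were kept with any 1 library left out, and those of the other 11 pathway genes named as changed were lost without at least 1 library. Among the pseudo-response regulators, clock proteins with a related receiver domain and no place in the phosphorelay, *PRR9*, *PRR7* and *PRR5* fell (log2 fold changes of -1.73, -1.22 and -1.61) and 2 of 5 did not pass. With 1 library left out, 1 to 3 genes of this list were called lower.

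Markers of other cells moved with genotype beside these results. Of 8 stomatal lineage genes, 5 rose (*SPCH*, *TMM*, *EPF1*, *EPF2* and *BASL*), and their summed level was 32.1 to 37.2 CPM in wild type and 43.8 to 48.6 CPM in *ref4-3*. Without wild-type replicate 3, 5 genes of the list were called higher (*EPF1* no longer among them), and without each of the other libraries 1 was. Of 5 shoot meristem genes, *STM* fell from 13.8 to 9.15 CPM, with sums of 58.7 to 69.9 and 46.8 to 60.3 CPM. Of 5 flower genes, *SEP3* fell and the sums were 10.9 to 15.1 and 5.41 to 9.17 CPM. Of 4 root genes only *WOX5* passed the filter and was tested, and it rose from 0.276 to 1.74 CPM. Of 4 leaf genes 2 fell (*CAB1* and *RCA*), with sums of 43106 to 47277 and 22517 to 29357 CPM. The calls of *STM*, *SEP3* and *CAB1* were each lost without at least 1 library, and those of *WOX5* and *RCA* were kept. None of these genes was at 0 in all libraries, and their part in the type-A values was not tested. In RNA from whole rosettes, fewer cells of a type and less RNA per cell cannot be told apart.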

How the data were processed

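Per the labels and the study's methods, the authors made directional poly(A) libraries, trimmed reads with fastp 0.23.2, mapped them to TAIR10 with HISAT2 2.2.1, sorted them with SAMtools 1.17 and deposited raw counts per Araport11 gene, with replicates not pooled. The DESeq2 and limma packages are named for the counting, but the function, its strand setting and its treatment of reads with several hits are not given in the sources used here. The counts were filtered by filterByExpr (minimum count 10, minimum total 15), scaled by TMM and fitted in edgeR 4.0.16 (R 4.3.3). Its quasi-likelihood test was two-sided, and p-values were adjusted by Benjamini-Hochberg across 23050 genes. The SE was derived from the F statistic. The scripts were tested on simulated data.

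Depth was 26060005 to 32879414 counts per library, and the level of 3 counts covers counting error only. Pair ratios used log2 CPM with a prior count of 0.5. The labels call the replicates biological. Replicate numbers were not taken to pair samples. The members and lists were chosen with earlier results of these data known. Named genes were all members and receptors and, per pathway list, up to 4 called genes and the most abundant. Other named genes were picked after their values were seen. Gene positions and upstream sequences came from RefSeq TAIR10.1, whose name differs from the authors' build. The study's methods name edgeR with an exact test, an FDR under 0.05 and a fold change above 2. Here edgeR's exact test was an alternative. Other alternatives were DESeq2 1.42.0, other size factors and filters, a replicate block, a 2-fold minimum, another prior count for pair ratios, and leaving out each library.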

Additional observations from a re-analysis of the deposited data

How the results depend on the processing

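The number of members called lower, 0, became 1 (*ARR5*) under edgeR's exact test, under DESeq2 and without a filter on low counts, and ran from 0 to 1 with a library left out. The number called higher, 1, became 2 under edgeR's exact test and under DESeq2, 0 without a filter, 0 with the replicate block and 0 with a 2-fold minimum, and ran from 0 to 1 with a library left out. Without a filter, more low-count genes entered, and the median log2 fold change of the genes tested was 0.176, against 0.0139. The 23050 genes of the filtered test shifted by a median of -0.10, for a cause that was not tested. *ARR4* (0.52) and *ARR5* (-1.20) shifted by about as much, and 1412 genes were called higher and 3303 lower, against 1964 and 2737. Among all genes the 4701 calls became 2240 with a 2-fold minimum and 1008 to 4639 with a library left out, lowest without *ref4-3* replicate 3. DESeq2 called 6177 and edgeR's exact test 6103.

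Pathway genes called lower, 6, ran from 1 to 8 with a library left out, and those called higher, 9, ran from 3 to 9 and became 14 under edgeR's exact test. The lowest counts came without *ref4-3* replicate 3 (1 lower and 3 higher). With a library left out, the log2 fold change of *ARR15* ran from -0.73 to 0.00, crossing 0 without *ref4-3* replicate 1, and that of *ARR16* ran from -0.00 to 0.45, crossing 0 without *ref4-3* replicate 2. The cause was not tested in any of these cases. Of 96 fitted values of single members under alternatives, 81 kept direction and side of the threshold. *ARR7*, *ARR8*, *ARR9*, *ARR15* and *ARR16* passed in no setting. A call was lost in 7 values, all of *ARR4*, the only member called in the main test. The 5 pair ratios kept their direction; their permutation test could not pass in any setting.

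Same-numbered deviations from the group means correlated at -0.10, -0.02 and 0.21, and those of unlike numbers at -0.14 to 0.13. With 3 libraries in each group these values cannot settle whether replicate numbers pair the samples. With the replicate block, 3362 genes were called, *ARR4* had a log2 fold change of 0.59 (adjusted p = 0.0812 by edgeR), and 5 pathway genes were lower and 6 higher. The adjusted p rose for *ARR4*, *ARR5*, *ARR6*, *ARR9* and *ARR16* and fell for *ARR7*, *ARR8* and *ARR15*. For *ARR8* it was 0.0575 with the block and 0.223 without it, by edgeR's quasi-likelihood test.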
